A study of Rattus norvegicus with 4 samples.

Results

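The genes described here are 10 imprinted genes of growth control in the rat: H19, Igf2, Dlk1, Meg3, Peg3, Mest, Cdkn1c, Plagl1, Grb10 and Nnat. They were chosen by name, through array probes whose RefSeq accession belongs to these rat symbols. Of the 10 genes, 9 had at least 1 probe, out of 16581 genes named on the array, and no probe was matched to Grb10. All 9 gave a signal well above background on 1 or more arrays, as did 9952 of all named genes, and 8 of them were so on all 4 arrays. H19 and Dlk1 entered the list because of their large falls on these same arrays, so their values are a description and support no inference about imprinted genes.

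RNA came from vessels of male rats, and each of 4 groups had 1 single-colour (Cy3) Agilent array. The groups were PKCbeta deletion rats (KO) with angiotensin II (Ang II) for 24 h, KO rats without it (KO control), wild-type Wistar rats (WT) with Ang II for 24 h, and WT rats without it (WT control). The submitters' design states 4 rats per genotype; it does not say which rats fed each array, whether their RNA was pooled, which vessel was taken, how old the rats were, or whether the deletion spans all cells. The title calls the KO animals transgenic, and no other allele is named. Ang II is a vasoconstrictor peptide hormone, and PKCbeta, encoded by Prkcb, is a kinase activated by calcium and diacylglycerol. With 1 array per group no difference has a replicate check, so no test and no p-value is given, and the differences below are between arrays.

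Imprinted genes are transcribed mainly from the copy inherited from a single parent. In the mouse H19, Meg3, Cdkn1c and Grb10 are active mainly on the maternal copy, and Igf2, Dlk1, Peg3, Mest, Plagl1 and Nnat on the paternal copy. Many of them steer fetal growth and are turned down in most tissues after birth. Several lie in clusters: H19 and Igf2 share enhancers and a control region whose methylation differs between the parental copies, and Dlk1 and Meg3 form another such pair. In blood vessels H19 is known as an RNA that is abundant in fetal and injured walls.

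H19 is a long noncoding RNA that also carries a microRNA. Its mature products, from RefSeq on GRCr8, are shown because H19 had the largest differences of the members. Capitals mark the seed, bases 2 to 8, which pairs with target RNAs. The 5p arm lies at chr1:207161800-207161821 and the 3p arm at chr1:207161766-207161786, both on the minus strand inside H19. No array probe was named to either arm, so the values below belong to the long transcript.

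rno-miR-675-5p: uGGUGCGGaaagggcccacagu
rno-miR-675-3p: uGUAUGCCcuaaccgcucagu

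Promoter windows, from RefSeq on GRCr8, are shown for the 3 other members that passed a 2-fold difference in any comparison. Dlk1 lies next to Meg3 on chromosome 6, while Plagl1 is on chromosome 1. Each window holds 300 bases around the annotated transcription start on the plus strand: chr6:134192347-134192646 for Dlk1, chr6:134273806-134274105 for Meg3 and chr1:9297214-9297513 for Plagl1. Capitals mark matches, on either strand, to the GC box (GGGCGG), to the cyclic AMP response element (TGACGTCA) and to the TATA element (TATAAA).

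Dlk1: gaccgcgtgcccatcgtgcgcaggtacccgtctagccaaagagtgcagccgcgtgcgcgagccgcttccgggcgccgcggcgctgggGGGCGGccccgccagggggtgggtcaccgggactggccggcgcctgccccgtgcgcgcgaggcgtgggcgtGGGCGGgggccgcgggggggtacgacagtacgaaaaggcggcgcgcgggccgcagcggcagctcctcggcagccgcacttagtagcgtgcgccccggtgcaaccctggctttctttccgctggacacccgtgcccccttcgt
Meg3: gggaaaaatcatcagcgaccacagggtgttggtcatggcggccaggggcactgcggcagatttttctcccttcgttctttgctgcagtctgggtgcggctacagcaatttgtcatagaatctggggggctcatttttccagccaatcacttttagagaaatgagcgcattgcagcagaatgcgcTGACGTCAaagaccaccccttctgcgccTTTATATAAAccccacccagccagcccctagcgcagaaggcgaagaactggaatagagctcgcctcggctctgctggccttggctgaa
Plagl1: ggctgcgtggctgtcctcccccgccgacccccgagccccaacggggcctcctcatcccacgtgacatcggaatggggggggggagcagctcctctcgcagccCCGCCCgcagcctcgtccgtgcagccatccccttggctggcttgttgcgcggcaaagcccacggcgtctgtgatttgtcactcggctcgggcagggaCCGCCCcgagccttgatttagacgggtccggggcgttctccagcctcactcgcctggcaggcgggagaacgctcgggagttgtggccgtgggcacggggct

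The Dlk1 and Plagl1 windows each held 2 GC boxes, a motif present in 33.1% of 33469 RefSeq promoter windows of this length. The Meg3 window held no GC box, 1 cyclic AMP response element (1.83% of windows) and 2 overlapping TATA matches, 1 on each strand (14.2% of windows). No match to TGANTCA, the AP-1 site, which 7.33% of windows hold, was present in these letters. E-box matches (CANNTG, 72.1% of windows) are not in capitals; the Plagl1 window had 1, and the others none. The Dlk1 window had 45 CpG dinucleotides, more than 98.3% of windows; Plagl1 had 29 and Meg3 13. A match describes letters only, and binding was not measured.

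Signals are the scanner's background-subtracted and detrended brightness, and comparisons use log2 of that signal minus log2 of the array's 75th percentile, called the scaled log2 level. The 75th percentile signal was 52.1 on the KO Ang II array, 47.3 on the KO control array, 62.4 on the WT Ang II array and 58.7 on the WT control array. Between 40.6% and 43.5% of probes were well above background, a flag the scanner software sets, and no spot was saturated. Where a signal was not well above background, the dimmest level that was so on that array stands in for it, or its own if higher, and the fold is then written "at least". Spots of 1 probe on the same array scattered by a median of 0.06 to 0.07 in log2 units (SD), and this limits only the reading of a spot. A difference of 2-fold or more is counted below. As a check of the labels, the brighter Prkcb probe was not well above background on the KO arrays (1.88 with Ang II and 1.93 without) and read 17.8 with Ang II and 14.7 without on the WT arrays.

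Cell type markers are given beside the comparisons, because in bulk RNA fewer cells of a type and less RNA per cell cannot be told apart. All 10 smooth muscle markers were well above background on every array, and their summed scaled signal was 228.9 to 245.2 on the KO arrays and 163.6 to 175.6 on the WT arrays. Fibroblast markers (10 of 12 measured) summed to 417 to 466 in KO and 737 to 763 in WT. They did not move together: without Ang II, 7 were lower and 3 higher in KO than in WT. Their log2 differences ran from -1.52 (Col1a1) and -1.45 (Col3a1) to 0.64 (Cd34). Macrophage markers (9 of 10) summed to 29.8 to 36.4 in KO and 56.7 to 65.0 in WT, and proliferation markers (5 of 8) to 2.61 to 3.01 in KO and 6.86 to 7.63 in WT. Endothelial markers (6 of 10, with Tie1 and Emcn not above background) summed to 18.0 to 19.5 in KO and 20.9 to 23.6 in WT. White adipocyte markers (4 of 8, with Lep, Cidec and Lipe not above background) summed to 2.66 to 2.96 in KO and 3.56 to 5.29 in WT. The skeletal muscle sums (4 of 10 markers) were 1.38 to 1.41 in KO and 0.943 to 0.969 in WT. Acta1, Myh2, Myh4, Tnnc2 and Actn3 were not above background on any array. These markers did not move together either. Without Ang II, Myh1 was at least 3.16-fold higher in KO than in WT, and Ckm was lower (log2 -0.32). With Ang II, Myh1 was at least 3.02-fold higher and Tnni2 lower (-0.23). With Ang II in WT, all 4 measured white adipocyte markers were lower (log2 -0.83 to -0.49), and their sum was 3.56 on the WT Ang II array and 5.29 on the WT control array. In that comparison the markers past 2-fold were Cd163 (-1.66, macrophage), Des (-1.51, smooth muscle) and Kdr (-1.25, endothelium), all lower. The part of these differences in the results below was not tested.

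**Figure D1:**
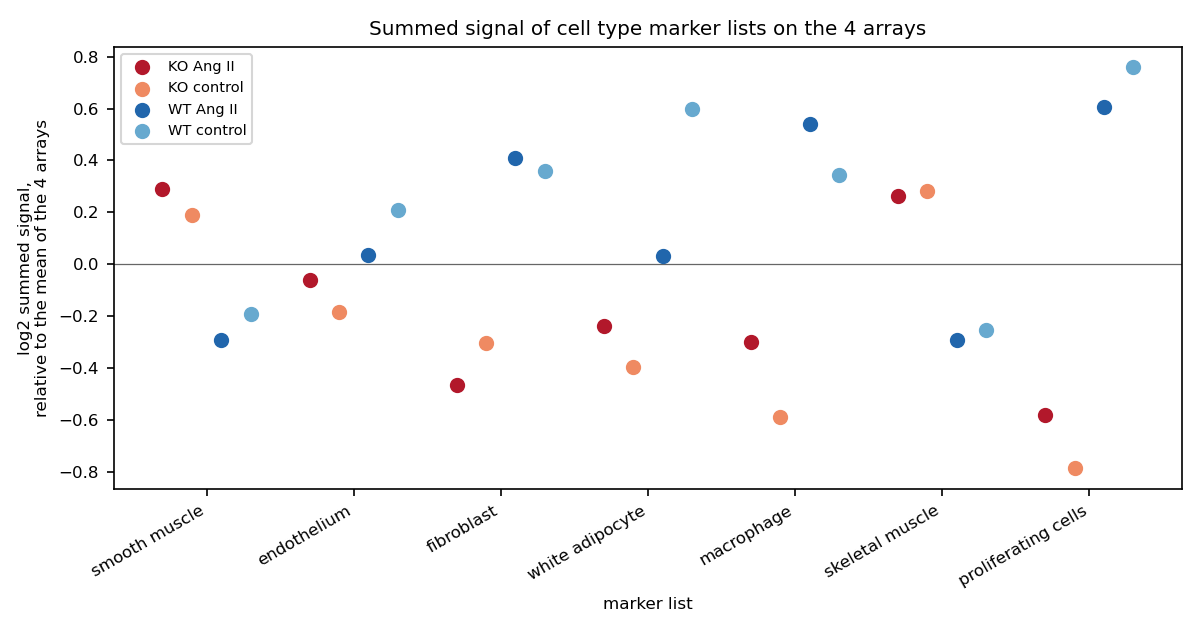
Summed scaled signal of each marker list, as log2 relative to the mean of the 4 arrays, with 1 point each for KO Ang II, KO control, WT Ang II and WT control. Smooth muscle sums were 228.9 to 245.2 on the KO arrays and 163.6 to 175.6 on the WT arrays, whereas fibroblast sums were 417 to 466 in KO and 737 to 763 in WT.

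H19 was brightest on the WT control array. Its only probe, with 1 spot, read 2.55 ± 1.76 (the scanner's own error for the spot) on the KO Ang II array, 1.74 ± 1.74 on the KO control array, 15.0 ± 2.24 on the WT Ang II array and 90.0 ± 9.18 on the WT control array. Both KO readings were not well above background, both WT readings were, and the WT control signal stood far above the WT Ang II signal. On the scaled log2 scale H19 was 6.37-fold lower with Ang II in WT (log2 -2.67), the 3rd lowest of 9793 genes measured on at least 1 side. In KO the response to Ang II could not be given, since neither array held a signal above background. KO was at least 8.72-fold lower than WT without Ang II, the 2nd lowest of 9447 genes. With Ang II, the bound was 1.53-fold. H19 was picked for these falls, so its ranks describe the choice.

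Igf2, the paternally expressed growth factor beside H19, did not share that pattern. Its brighter probe (2 spots) read 95.2 on the KO Ang II array, 83.5 on the KO control array, 155.5 on the WT Ang II array and 134.1 on the WT control array. The KO signals were both below the WT signals, and within each genotype the Ang II signal was slightly above the control one. After scaling, Ang II against control was 0.13 in WT and 0.05 in KO on the log2 scale, and KO against WT was -0.37 without and -0.45 with Ang II. None of these reached 2-fold. A second Igf2 probe was not well above background on any array.

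Cdkn1c, an inhibitor of cyclin-dependent kinases that lies in the same chromosome 1 cluster, was among the brightest members. It read 317 ± 31.7 on the KO Ang II array, 276 ± 27.6 on the KO control array, 338 ± 33.8 on the WT Ang II array and 392 ± 39.2 on the WT control array (scanner error, 1 spot). Ranked by size, each signal was within the summed scanner errors of the next, and its scaled log2 differences were -0.30 for Ang II in WT, 0.06 for Ang II in KO, -0.19 for KO against WT without and 0.17 with Ang II. The second Cdkn1c probe read 203, 183, 228 and 264 on the same arrays in that order, again highest on the WT control array.

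Dlk1 was lowest on the KO Ang II array. This gene encodes a membrane protein of the Notch ligand type, also shed from cells, that holds back fat cell formation. Its probe (1 spot) read 13.1 ± 2.11 on the KO Ang II array, 52.3 ± 5.49 on the KO control array, 31.3 ± 3.51 on the WT Ang II array and 49.8 ± 5.26 on the WT control array. The control arrays of both genotypes were close to each other, and both Ang II arrays were below them. Dlk1 was 4.40-fold lower with Ang II in KO (log2 -2.14), the 7th lowest of 9233 genes, and 1.69-fold lower with Ang II in WT (log2 -0.75). KO against WT was 0.38 on the log2 scale without Ang II and -0.999 with it. With Ang II it was thus 1.998-fold lower, just outside the 2-fold count. The difference between the KO and WT responses was -1.38 on the log2 scale. Dlk1 was chosen for its fall, so these values are a description.

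Meg3, a maternally expressed noncoding RNA next to Dlk1, was lower in KO with and without Ang II. Its brighter probe (10 spots) read 39.1 on the KO Ang II array, 53.9 on the KO control array, 121.9 on the WT Ang II array and 143.9 on the WT control array. The KO signals lay wholly below the WT signals, and the replicate spots of an array had SDs of 0.07 to 0.14 on the log2 scale. KO against WT was -1.11 without Ang II (2.15-fold lower) and -1.38 with Ang II (2.60-fold lower). Its second probe gave the same direction, not well above background on both KO arrays and at 21.0 and 19.7 on the WT Ang II and WT control arrays, so that KO was lower by at least 1.91-fold without Ang II and by at least 2.14-fold under it. Ang II against control was smaller, -0.60 in KO and -0.33 in WT.

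Plagl1, like Dlk1, was lowest on the KO Ang II array. It encodes a zinc finger transcription factor, which in mouse cells can activate several other imprinted genes. Its brighter probe read 12.6 ± 2.14 on the KO Ang II array, 36.6 ± 4.06 on the KO control array, 37.2 ± 4.07 on the WT Ang II array and 57.9 ± 6.03 on the WT control array. The KO Ang II array was well below the other 3, and the WT control array was above them. Plagl1 was 3.21-fold lower with Ang II in KO (log2 -1.68), the 15th lowest of 9233 genes, and 1.66-fold lower with Ang II in WT (log2 -0.73). KO against WT was -0.35 without and -1.30 with Ang II, and the difference of the responses was -0.96. Its second probe was not well above background on any array.

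**Figure D2:**
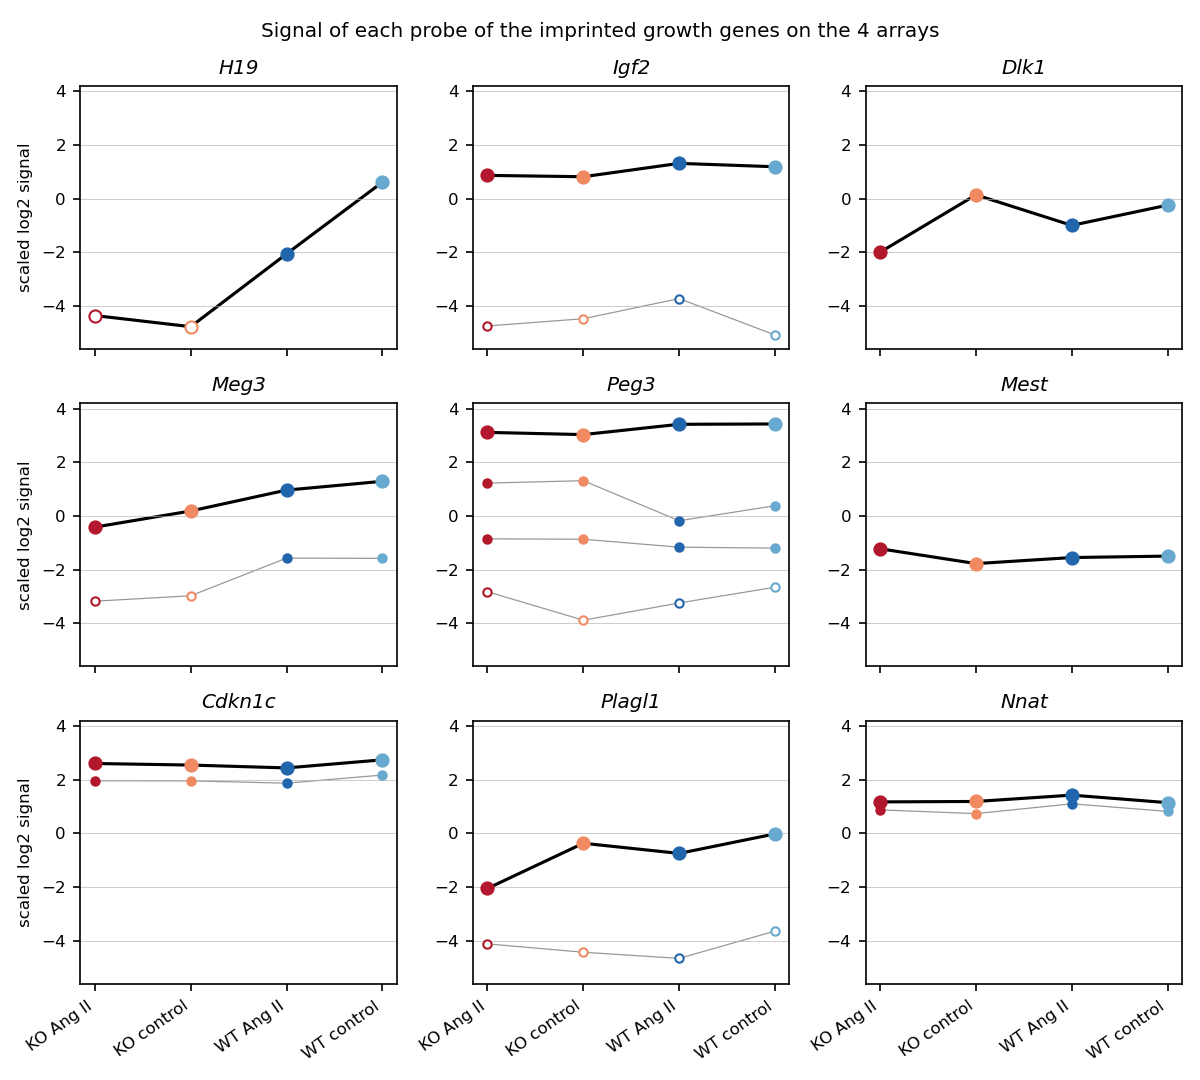
Scaled log2 level of every probe of the 9 measured genes on the KO Ang II, KO control, WT Ang II and WT control arrays; heavy black lines join the points of the brightest probe, grey lines those of other probes, and open markers are signals not well above background. H19 lies at -4.35 and -4.77 on the KO Ang II and KO control arrays, both open, and at -2.05 and 0.62 on the WT Ang II and WT control arrays, while Dlk1 and Plagl1 are lowest on the KO Ang II array at -1.99 and -2.05.

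Peg3, Mest and Nnat stayed under 2-fold by their brightest probes. Peg3, a paternally expressed zinc finger protein, read 452 on the KO Ang II array, 388 on the KO control array, 667 on the WT Ang II array and 633 on the WT control array by its brightest probe. That probe put KO below WT, by -0.40 without and -0.30 with Ang II on the log2 scale. Another Peg3 probe pointed the other way: 122.0 on the KO Ang II array and 117.9 on the KO control array, against 55.2 on the WT Ang II array and 76.7 on the WT control array. Its KO against WT differences were 0.93 without and 1.40 with Ang II, so the direction of Peg3 depends on the probe read. The mean of its probes gave 0.29 without and 0.47 with Ang II. A further Peg3 probe read 25.6 to 28.9 on all arrays and, after scaling, was 0.33 (without) and 0.31 (with Ang II) higher in KO than in WT. Of the 3 Peg3 probes well above background, 2 thus put KO above WT, and the last probe was not well above background on any.

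Mest, a gene of the alpha/beta hydrolase fold family known for its part in fat cell growth in mice, read 22.4 ± 2.89 on the KO Ang II array, 13.8 ± 2.42 on the KO control array, 21.4 ± 2.94 on the WT Ang II array and 20.9 ± 2.81 on the WT control array. In these unscaled signals only the KO control array stood apart, on the low side. After scaling, the levels were -1.22 (KO Ang II), -1.77 (KO control), -1.55 (WT Ang II) and -1.49 (WT control). The KO Ang II array then stood on the high side and the KO control array on the low side. Ang II against control was 0.55 in KO and -0.05 in WT on the log2 scale. Nnat, a small membrane protein of the endoplasmic reticulum, read 117.3 on the KO Ang II array, 107.8 on the KO control array, 167.4 on the WT Ang II array and 129.7 on the WT control array by 10 spots. Its second probe kept the order of the 4 signals, with 95.5, 78.7, 133.8 and 103.4. After scaling, the widest of the 4 Nnat differences was 0.28 on the log2 scale, for Ang II in WT.

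Counted together by each gene's brightest probe, the members past 2-fold were all lower. A Peg3 probe that is not its brightest was 1.40 higher on the log2 scale for KO against WT with Ang II. For Ang II in WT it was 1 of 9 (H19), where 0.887% of 9805 genes were at least 2-fold lower, 1.43% higher and so 2.32% either way. For Ang II in KO it was 2 of 8 (Dlk1 and Plagl1), where 0.777% of 9266 genes were lower, 0.183% higher and 0.961% either way. For KO against WT without Ang II it was 2 of 9 (H19 by its bound, and Meg3), where 3.27% of 9602 genes were lower, 2.36% higher and 5.63% either way. These 3 comparisons include those by which H19 and Dlk1 were chosen, and nothing is read from their counts. For KO against WT with Ang II, which uses the same KO Ang II and WT Ang II arrays, 2 of 9 were lower (Meg3 and Plagl1), where 4.38% of 9647 genes were lower, 1.82% higher and 6.21% either way. For the difference of Ang II responses, 1 of 8 was past 2-fold (Dlk1), where 2.85% of 8588 genes were lower, 1.27% higher and 4.12% either way. This difference is built from the Ang II responses, and Dlk1 was chosen for its fall, so nothing is read from this count either.

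The members' median log2 difference was -0.30 for Ang II in WT, 0.02 for Ang II in KO, and, setting KO against WT, -0.35 without and -0.45 with Ang II, where the medians of all genes compared were 0.04, -0.005, 0.01 and -0.04. The first of these members' medians was -0.05 with normexp, -0.18 when probes of a gene were averaged and -0.18 without H19, the member not detected on every array. With normexp the KO against WT medians were -0.14 without and -0.26 with Ang II. By parental group as known in the mouse, KO against WT without Ang II had medians of -1.11 over the 3 measured maternal genes (H19, Meg3 and Cdkn1c) and -0.31 over the 6 paternal ones. With Ang II the paternal median was -0.37, while of the maternal genes H19 was at or below -0.61 (a bound), Meg3 at -1.38 and Cdkn1c at 0.17. H19, picked for its fall, is 1 of the 3 maternal genes in both. Comparisons that share an array are not independent of each other.

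**Figure D3:**
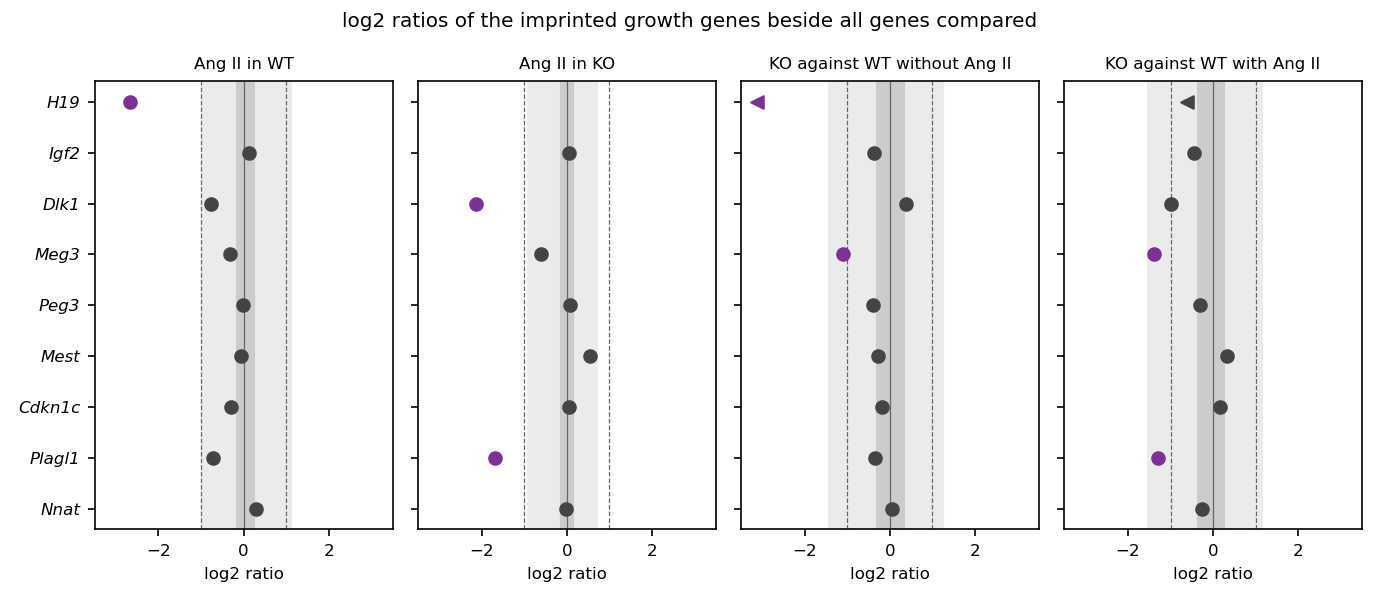
Scaled log2 differences of the 9 measured genes in each of the 4 comparisons, with triangles for bounds, dashed lines at 2-fold, purple for values past it, and dark and light bands for the central 50% and 98% of all genes compared. H19 lies at -2.67 for Ang II in WT and Dlk1 at -2.14 for Ang II in KO, and Meg3 is past 2-fold in both KO against WT comparisons.

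An alternative chosen after seeing the data used the median signals with a normal-exponential background correction and an offset of 50. Every member ratio past 2-fold then moved towards 0. Some smaller ones moved away from it, such as Peg3 for Ang II in WT (from -0.01 to 0.21). With this correction, Dlk1 was -0.77 and Plagl1 -0.56 on the log2 scale for Ang II in KO. For KO against WT with Ang II, Plagl1 was -0.32. Meg3 was then -0.71 without and -0.79 with Ang II, all in the same direction and all under 2-fold. H19 was then -1.04 (Ang II in WT) and -1.09 (KO against WT, no Ang II), both still past 2-fold. For KO against WT with Ang II, H19 ranged from -0.09 with this correction to -2.30 with dim values as read, so that difference has no settled size.

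The members' neighbours along the chromosome are described next. In the cluster from H19 to Cdkn1c on chromosome 1, 9 genes that are no members were measured, and Mrpl23, directly beside H19 in gene order, was 0.08 for Ang II in WT; its KO against WT value in untreated vessels was 0.55. Of these genes only Ascl2, a transcription factor gene of placental growth, passed 2-fold, at -1.10 for KO against WT with Ang II. In the cluster around Dlk1 and Meg3 the gene past 2-fold was Dio3, which encodes a deiodinase that inactivates thyroid hormone. It was -1.47 for Ang II in WT and at least 3.29-fold lower in KO than in WT without Ang II. Under Ang II, KO exceeded WT by 0.32. Begain, just before Dlk1, stayed between -0.20 and 0.31 in these comparisons. Across all 48 genes nearest to the members in gene order, 34 were well above background, and Ascl2 and Dio3 were those past 2-fold. For Ang II this was 1 of 33 in WT and 0 of 33 in KO, where 2.32% and 0.961% of all genes passed. For KO against WT it was 1 of 32 without and 1 of 34 with Ang II, where 5.63% and 6.21% passed. Nothing is read from these counts.

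**Figure D4:**
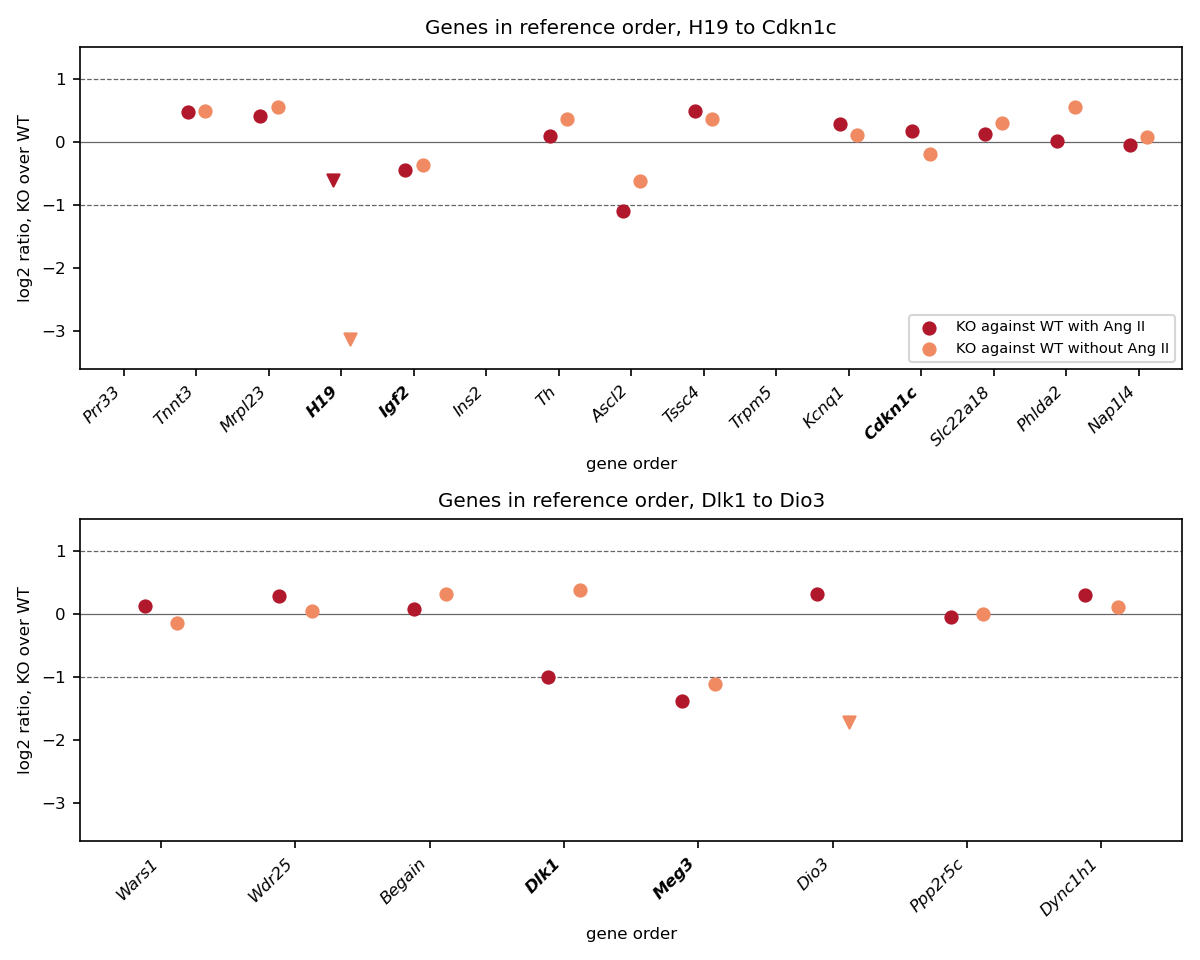
Scaled log2 KO over WT, with Ang II (dark red) and without it (orange), of genes in their chromosomal order around H19 to Cdkn1c (top) and Dlk1 to Dio3 (bottom). Member names are bold, triangles are bounds, dashed lines mark 2-fold, and genes without points had no signal above background; without Ang II, H19 lies at -3.12 while Mrpl23 beside it lies at 0.55, and Dio3 beside Meg3 lies at -1.72.

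Other imprinted genes were measured for comparison, 25 of 44 listed being well above background on at least 1 array and 24 comparable in each comparison. For Ang II in WT none was at least 2-fold higher and 2 were lower, Dio3 and the amino acid transporter gene Slc38a4 (at least 2.66-fold lower). For Ang II in KO none passed in either direction. KO against WT had 4 lower and none higher without Ang II, namely Dio3, Ndn (-1.51), Sfmbt2 (-1.29) and the phosphatase gene Inpp5f (-1.03). With Ang II it had 3 lower and none higher, namely Sfmbt2 (-1.30), Ndn (-1.23) and Ascl2. Ndn encodes necdin, a protein that restrains cell growth, and Sfmbt2 a Polycomb group protein. The medians of this list were 0.06, 0.00, -0.05 and 0.10 in the 4 comparisons, in the order above. In the same order, 0.887%, 0.777%, 3.27% and 4.38% of all genes were at least 2-fold lower, and 1.43%, 0.183%, 2.36% and 1.82% higher.

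The partners through which these genes act are set beside all genes, of which 0.961% to 6.21% passed 2-fold in the 4 comparisons. Of the receptors, adaptors and RNA-binding proteins of the Igf2 axis, 6 of 10 were measured. The list held no carrier protein of Igf2. The only pass was Igf2bp2, an RNA-binding protein that binds Igf2 transcripts: KO without Ang II was -1.83 against WT. That was 1 of 5 genes compared, where 3.27% of all genes were lower. With Ang II, Igf2bp2 was -0.97. Igf2r, the receptor that clears Igf2, was between -0.16 and 0.27 in all 4 comparisons, and Igf1r, through which Igf2 signals, between -0.27 and 0.09. Of the Notch genes related to Dlk1, 9 of 14 were measured and none passed 2-fold in any comparison. The lowest were Nrarp, at -0.91 for KO against WT under Ang II, and Hey2, at least 1.80-fold lower with Ang II in KO, and the highest was Notch3, at 0.78 for KO against WT in untreated vessels.

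The genes most like H19 and Dlk1 over the 4 arrays were found among 9300 named genes by the distance between scaled log2 levels centred on each gene's mean, which is a description over 4 points. H19 was chosen for its fall and was not well above background on either KO array, nor were Reln, Kctd16, Lyve1 and Cdca3, so the distances from H19 rest in part on such readings and their order is not settled. For H19 they were Reln (1.43), Kctd16 (1.57), Akr1c15 (1.59), Lyve1 (1.63) and Cdca3 (1.77), and each was highest on the WT control array. Reln encodes the secreted protein reelin, Lyve1 a hyaluronan receptor of lymphatic endothelium and some macrophages, and Cdca3 a cell division protein. For Dlk1 they were Uncx (0.06), Oxct2b (0.21), Lgals5 (0.33), Troap (0.38) and Pcsk1 (0.45), each lowest on the KO Ang II array. Troap was not well above background on that array. Dlk1 was likewise chosen for its fall, and the shared low point follows from taking the nearest profiles. Plagl1 lay at 0.61 from Dlk1, the 15th closest gene.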

How the data were processed

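The study measured gene expression on 4 single-colour arrays, 1 per group, with groups taken from the sample titles. Spots were read with Agilent Feature Extraction (12.1.1.1 per the submitters' processing notes, 10.7.1.1 per the file headers), and the deposited intensity used here is its processed signal, already background-subtracted and detrended per the file headers. Other deposited columns used were the scanner's error of the processed signal, the median signal and median background, and flags of 0 or 1 for outlier, saturated and well-above-background spots. The authors also deposited a table of log2 values, of unstated normalization; after adding a constant per array, log2 processed signals matched it within 0.01 for 98.0 to 98.1% of probes, and its column medians were 2.11 (KO Ang II), 2.27 (KO control), 2.22 (WT Ang II) and 2.30 (WT control).

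From the intensity, control and outlier spots (301 to 372 per array) were left out, log2 signals were averaged per probe, and log2 of the array's 75th percentile was subtracted. A probe counted as well above background where more than 50% of its spots did. Genes whose bright side did not exceed the bound of the dim side have no fold: they count as not past 2-fold in the percentages and stay out of ranks and medians. A gene took its brightest probe by mean level, from those well above background on 1 or more arrays. Probes were named by unversioned accession through RefSeq genes of GRCr8, which named 21107 of 45594 probes; GRCr8 gave names and gene order only. The 4 arrays shared 1 slide and 1 scan time. Ratios were computed in Python 3.11.15 (numpy 2.4.6, pandas 2.3.3), tested on simulated data. Quantile normalization was also computed in Python, and normexp (offset 50) used limma 3.58.1 in R 4.3.3. Normexp ran on median signals and not, as planned, on mean signals, which were not used here. The members and lists were chosen with earlier results of these data known. Named genes were all members with every probe, up to 4 genes past 2-fold per comparison from each list, and the 5 genes most like H19 and Dlk1. List genes and markers named although under 2-fold (such as Mrpl23, Begain, Igf2r, Igf1r, Notch3, Nrarp, Hey2, Pparg, Cebpa, Cebpd, Cdkn1a and Cdkn1b), and the markers past it, were chosen after their values were seen. Alternatives changed the scaling, background, probe rule, filter and spot rule. One of the marker lists is not reported here. No test was run, because each group had 1 array, and the number of arrays limits the precision.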

Additional observations from a re-analysis of the deposited data

Results flagged for a closer look

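By their brightest probes, several members had opposite signs in paired comparisons, and each such difference was not tested, since each group had 1 array. Dlk1 was lower in KO than in WT with Ang II (-0.999 on the log2 scale) and higher without it (0.38), a difference of -1.38. Before scaling, its control signals were within scanner error of each other, 52.3 ± 5.49 in KO and 49.8 ± 5.26 in WT. Mest was higher with Ang II in KO (0.55) and close to 0 in WT (-0.05), and likewise higher in KO than in WT with Ang II (0.33) and lower without (-0.28), a difference of 0.61. With normexp, the Mest value for KO against WT without Ang II was 0.01. Cdkn1c was 0.06 for Ang II in KO and -0.30 in WT, and 0.17 for KO against WT with and -0.19 without Ang II, a difference of 0.36. Nnat was -0.02 for Ang II in KO and 0.28 in WT, and -0.25 for KO against WT with and 0.04 without Ang II, a difference of -0.30. Its second probe had no opposite signs: 0.14 in KO and 0.28 in WT for Ang II. For KO against WT that probe was -0.23 with and -0.08 without Ang II. The Nnat sign held in 7 of 10 alternatives for Ang II in KO and in 8 of 10 for KO against WT without Ang II. Peg3 was 0.08 for Ang II in KO and -0.01 in WT, a difference of 0.10. Another Peg3 probe was -0.09 in KO and -0.56 in WT, and a further one 0.01 and 0.04, so neither had opposite signs. With normexp, Peg3 was 0.21 for Ang II in WT. Across all genes measured on all 4 arrays, 4.12% of 8588 had a difference of at least 2-fold in either direction, and of these 5 members Dlk1 was the one that did. Dlk1 was chosen for its fall on these arrays, so nothing is read from its passing.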

How the results depend on the processing

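Of 10 alternatives, 2 were added after seeing the data (normexp on the median signals, and linear spot means with a looser background rule). The 8 member differences past 2-fold kept their sign in every alternative in which they had a value, and only H19's 2 stayed past 2-fold in all of those. With genes well above background on all arrays, H19 drops out by construction, which leaves 0 members past 2-fold (Ang II in WT) and 1 (KO against WT, no Ang II). With normexp the count was 0 (Ang II in KO), 1 (KO against WT, no Ang II), 0 (KO against WT, Ang II) and 0 for the difference of responses (Dlk1 -0.49). The KO against WT count with Ang II was 3 with the authors' deposited table, with dim values as read and with linear spot means. Over all genes, normexp called 29 up and 8 down with Ang II in WT (140 and 87 otherwise), 0 and 4 in KO (17 and 72), 25 and 89 between genotypes without Ang II (227 and 314), 18 and 137 with it (176 and 423), and 20 and 50 for the difference (109 and 245). Dim values as read gave 246 and 179 with Ang II in WT, 90 and 149 in KO, and 528 down between genotypes without Ang II, linear means 41 and 130 for Ang II in KO, and the all-array filter 30 lower for Ang II in WT and 10 and 40 in KO. Some of these changes follow from fewer genes compared. Counts with dim values as read can only rise, since the bounds are then not applied. The normexp offset of 50 is added to every signal, which by arithmetic narrows the log2 ratios of dim probes. How much of the normexp change this accounts for, and the cause of the other changes, was not tested. H19 in KO was not well above background, which leaves only bounds there. No paired analysis was possible because each group has 1 array and the groups share a single replicate number. Normexp on mean signals and slide as a block (1 slide) were not run.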

Other observations

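Fat cell formation, which Dlk1 restrains, was covered by 8 listed genes, of which 7 were measured. Sox9, a transcription factor of cartilage and progenitor cells, was the only pass, at 1.58 on the log2 scale for KO against WT without Ang II. That was 1 of 7 genes compared, where 2.36% of all genes were higher. Sox9 was 0.01 with Ang II, with a difference of responses of -1.57. Pparg, the main regulator of fat cell formation, was 0.53 for Ang II in KO and -0.20 in WT, and -0.12 for KO against WT with and -0.85 without Ang II. Cebpa was between -0.38 and 0.12 in the 4 comparisons, and Cebpd between -0.81 and 0.39.

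Besides Cdkn1c, 3 of 6 listed inhibitors of cyclin-dependent kinases were measured, and none passed 2-fold. Cdkn1b was nearest, at -0.94 for KO against WT with and -0.98 without Ang II. Cdkn1a was between -0.06 and 0.33. In the difference of Ang II responses, 2 of the 21 other imprinted genes measured on all arrays were at least 2-fold higher, Inpp5f at 1.35 and Ppp1r9a at 1.02, and none was lower, where 1.27% of genes were higher and 2.85% lower.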
